A study of Homo sapiens with 24 samples.

Results

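The comparison of medium-dose EESF with vehicle B covered 6 of the 24 RNA-seq libraries of the series, 3 in each group, which were taken by their sample labels. EESF is the ethanol extract of Schisandrae Fructus (SF), the dried fruit of Schisandra chinensis, and WESF is its hot-water extract. The cells were SW1783, an established human astrocytoma line, treated for 24 h with EESF at 62 µg/mL, or with the vehicle, which is labelled 0.1% DMSO and described in the methods as PBS with that share of DMSO. The remaining libraries hold EESF at 12.4 µg/mL (low dose) and 310 µg/mL (high dose), and WESF at 20, 100 and 500 µg/mL with a vehicle A of its own. All EESF libraries and vehicle B belong to batch B, and all WESF libraries and vehicle A to batch A, so a difference between the extracts cannot be told apart from one between the batches. The total of expected counts per library was 18727797 to 20465712 for vehicle B and 25121561 to 28712898 for medium-dose EESF. Nothing in the labels says that the 3 libraries of a group came from separate cultures, so the p-values measure the spread between these libraries, which may be technical.

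Astrocytomas are tumours of the astrocyte lineage, and their cells build and remodel an extracellular matrix on which they adhere and migrate. Immediate early genes such as EGR1 are switched on by serum, growth factors and MAPK signalling without new protein synthesis, and their transcripts are short-lived. The preparation of an RNA-seq library can favour or disfavour fragments by their base composition, so the change of each gene was also set against the GC content (the percentage of G and C bases) of its transcript.

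The label of the cell line was checked against marker genes. Of 13 astrocyte and glial markers, 6 stayed under 10 counts in each of the 6 libraries. GFAP, the intermediate filament that defines mature astrocytes, had between 0 and 8 counts, the water channel AQP4 at most 1, ALDH1L1 at most 1, S100B at most 2, and FABP7 had 0 in all 6. The genes that were measured in depth were VIM (vimentin, mean 2186 RPKM in vehicle B), CD44 (510 RPKM) and the gap junction gene GJA1 (64.1 RPKM), together with SOX9 (20.96 RPKM) and the glutamate transporter SLC1A3 (7.75 RPKM). Mesenchymal markers were abundant, with COL1A1 at 614 RPKM and FN1 at 528 RPKM in vehicle B, both per kilobase of transcript. Markers of other cell types were mixed. MOG had 0 counts, and AIF1, CDH1 and CDH5 had at most 1, whereas the epithelial keratins KRT18 (78.3 RPKM in vehicle B) and KRT8 (8.49 RPKM), the neuronal SNAP25 (13.5 RPKM) and SYN1 (1.84 RPKM) and the oligodendrocyte gene MBP (2.30 RPKM) were measured. The summed CPM (counts scaled to a common library size, with TMM factors) of the astrocyte and glial markers was 7703, 7819 and 7866 in vehicle B and 7929, 7842 and 7662 in medium-dose EESF, and that of the mesenchymal markers was 10169, 10575 and 10373 against 9026, 9409 and 9364, where FN1 and COL3A1 were the members that fell. The microglia and macrophage markers summed to 193.9, 215.96 and 204.6 CPM against 217.4, 218.5 and 222.8 CPM, with CD68 the most abundant and AIF1 and ITGAM at most at 4 counts. On the log2 scale PTPRC of that list fell by 0.35 (a call lost with the GC trend removed) and the neuronal SYT1 by 0.32. Of the astrocyte and glial list SLC1A3 fell by 0.30 and SOX9 by 0.23. The call of PTPRC was kept in 8 of 16 alternative analyses and that of SOX9 in 13. Both were kept in 3 of the 6 that left out a library. The part of these genes in the results below was not tested, and in such bulk samples fewer cells of a kind and less RNA per cell cannot be told apart.

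At the medium dose EGR1 fell to 0.488 of its vehicle level, the largest change among the 26 better covered genes named below. The matrix gene HMCN1, the cadherins FAT1 and FAT4 and the cytoskeletal linker DST fell as well, while the DEGs that rose were mostly short, rich in GC and low in counts. A gene was counted as a DEG when its adjusted p in edgeR's quasi-likelihood test was under 0.05 and its level moved by more than 1.5-fold up or down. Of 12978 protein-coding genes tested, 98 were DEGs (0.755%), 61 higher and 37 lower. Whatever the size of the change, 896 genes (6.9%) rose and 1101 (8.48%) fell, and the median change of all genes was 0.01 on the log2 scale. The number of DEGs rested on single libraries, being 164 when vehicle B replicate 1 was left out, 61 when it was vehicle B replicate 2 and 50 when it was medium-dose EESF replicate 3, and on the method, since DESeq2's Wald test called 33 of the 98 and no others. Most DEGs were thinly covered: 68 of the 98 had a mean under 100 normalized counts. Many of the thinnest, among them HSF4, AGER and CHRM3, had no adjusted p in DESeq2, so its test could not call them. Read-through genes, annotated models that join the exons of neighbouring genes and share reads with both, made up 18 of the 98 DEGs (18.4%) against 1.07% of the genes tested, and RSEM's division of reads between them and their neighbours makes their values uncertain.

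EGR1 (ENSG00000120738), a zinc-finger transcription factor and immediate early gene, was measured at 147, 173 and 176 CPM in vehicle B and at 80.4, 74.7 and 86.6 CPM in medium-dose EESF. The highest treated library lay well under the lowest vehicle library, and the log2 fold change was -1.04 (SE 0.07, adjusted p = 4.26e-07). It remained a DEG in all 16 alternative analyses, including the removal of the GC trend (-1.06) and DESeq2's test (adjusted p = 1.11e-43). KLF6, a zinc-finger factor that is also induced early after injury and serum, had 123, 118 and 118 CPM in vehicle B and 81.0, 75.3 and 86.2 CPM with EESF. Its groups were as clearly separated, but the change of -0.57 was under the fold threshold (SE 0.05, adjusted p = 4.18e-05). Among 20 AP-1, EGR and immediate early genes tested, 4 fell and 2 rose, with a median of -0.08 against 0.01 for all genes. MYC, a growth regulator (-0.19), and FOSL2, a subunit of AP-1 (-0.16, adjusted p = 0.146 with the GC and length trends removed), were the others that fell. MAFF rose by 0.40, and JUND rose by 0.22 but stood at -0.02 with the GC trend removed.

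Of the 12978 genes tested 4392 had groups that did not overlap, 3959 of them with at least 100 normalized counts on average. The DEGs named here averaged at least 100 normalized counts and had groups that did not overlap, which left 12 that rose and 14 that fell. The plot of their values by library shows them together.

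**Figure D1:**
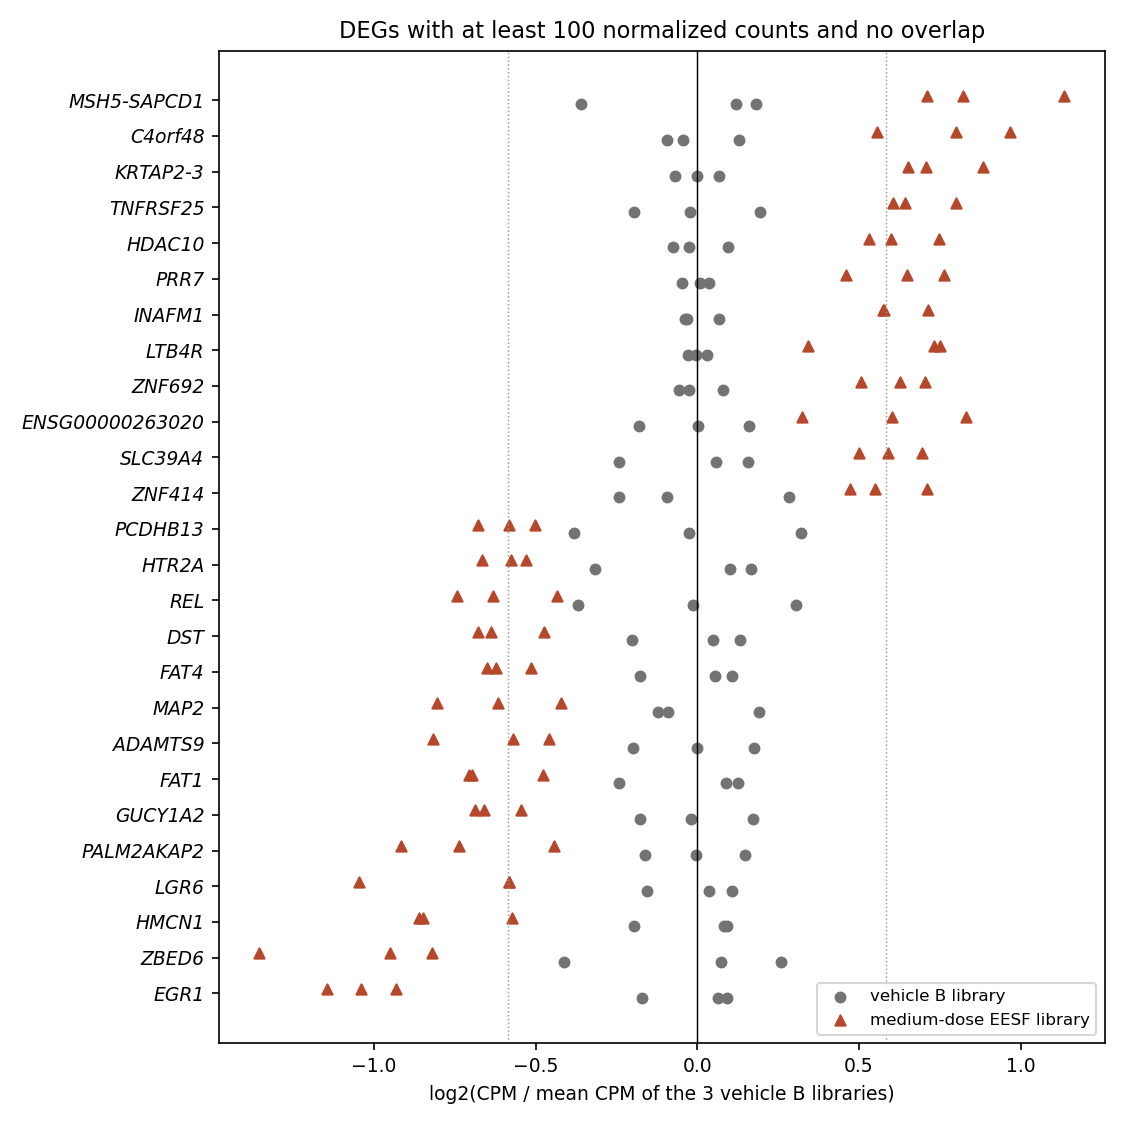
CPM of each of the 26 genes in each library, as the log2 ratio to the mean of the 3 vehicle B libraries (x axis), with a row for each gene; circles are vehicle B libraries, triangles medium-dose EESF libraries, and dotted lines mark a fold of 1.5. EGR1 and ZBED6 lie farthest to the left, and the vehicle circles of ZBED6, REL, PCDHB13 and MSH5-SAPCD1 are spread most widely.

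Of the 14 that fell, 10 had transcripts longer than 7000 bases, where the median of all genes tested was 3389 bases. HMCN1, which encodes hemicentin, a very large extracellular matrix protein, had 33.3, 40.7 and 40.4 CPM in vehicle B and 20.99, 25.6 and 21.2 CPM with EESF (log2 fold change -0.76, SE 0.09, adjusted p = 0.000194). The giant cadherins FAT1 and FAT4, which act in cell contact and planar polarity, changed by -0.62 and -0.59. FAT1 had 377, 474 and 486 CPM in vehicle B and 275, 320 and 273 CPM with EESF. DST, the cytoskeletal linker dystonin, had 608, 724 and 768 CPM in vehicle B and 450, 504 and 437 CPM with EESF (-0.59). In these 4 genes vehicle B replicate 1 was the lowest vehicle library and lay nearest to the treated ones. ADAMTS9, a secreted protease of the versican-cleaving family, fell by 0.61, and PCDHB13, a clustered protocadherin with near-identical neighbours among which reads can be divided wrongly, fell by 0.59.

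Several of the genes that fell encode receptors and signalling proteins. LGR6, a receptor for R-spondins that raises Wnt signalling, had 6.40, 5.61 and 6.73 CPM in vehicle B and 4.17, 3.03 and 4.17 CPM with EESF (-0.71, adjusted p = 0.00329). HTR2A, the serotonin receptor 2A, had 6.35, 8.49 and 8.88 CPM against 4.98, 5.31 and 5.48 CPM (-0.59). GUCY1A2, a subunit of the nitric oxide receptor guanylate cyclase, changed by -0.63, REL, a subunit of NF-kappa-B, by -0.59, and MAP2, a microtubule-associated protein, by -0.60. PALM2AKAP2, an anchor of protein kinase A, changed by -0.68. ZBED6, a zinc-finger repressor whose coding sequence lies inside an intron of ZC3H11A, had 14.6, 20.5 and 23.3 CPM in vehicle B and 11.03, 10.1 and 7.61 CPM with EESF (-1.01, adjusted p = 0.000584), and reads of its host gene can be counted for it.

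Of the 12 that rose, 10 had a GC content over 55%, where the median of all genes tested was 48.2%. None was longer than 7000 bases. C4orf48, which encodes a small secreted neuropeptide-like protein, had 6.66, 5.71 and 5.90 CPM in vehicle B and 10.6, 8.96 and 11.9 CPM with EESF (0.78, SE 0.11, adjusted p = 0.000701). PRR7, a proline-rich membrane adaptor, had 12.04, 11.8 and 11.4 CPM against 16.2, 18.4 and 19.9 CPM (0.62). INAFM1, a small transmembrane protein, rose by 0.62, and SLC39A4, the zinc importer ZIP4, by 0.59. The others included HDAC10, a polyamine deacetylase of the histone deacetylase family (0.62), and the zinc-finger genes ZNF692 (0.61) and ZNF414 (0.59). Receptors among them were TNFRSF25, a death-domain receptor of the TNF family (0.68), and LTB4R, the receptor for leukotriene B4 (0.61). KRTAP2-3, a hair keratin-associated protein with close paralogues, had 3.76, 3.59 and 3.42 CPM in vehicle B and 5.87, 5.64 and 6.63 CPM with EESF (0.75, adjusted p = 0.00124). The other 2, MSH5-SAPCD1 (0.90) and ENSG00000263020 (0.60), are read-through models. Each of the 26 kept its direction in every alternative, 24 had an adjusted p under 0.05 in all 16, and EGR1, ZBED6, KRTAP2-3 and MSH5-SAPCD1 were DEGs in all 16.

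Coding sequences of the genes at the extremes illustrate the range of base composition. They were picked by GC content, so their contrast tests nothing. Of the 14 fallers 2 had a transcript GC content over 55%, LGR6 (60.2%) and EGR1 (55.3%). Shown are windows of 60 bases, each within a single coding exon and with a GC content close to that of the whole coding sequence, for the 3 risers with the highest and the 3 fallers with the lowest transcript GC content. They were read from GRCh38 on the coding strand, 5′ to 3′, with G and C in capitals.
C4orf48, chr4:2042366-2042425, plus strand: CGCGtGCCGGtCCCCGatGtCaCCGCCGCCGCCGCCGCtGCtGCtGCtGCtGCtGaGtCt
PRR7, chr5:177455150-177455209, plus strand: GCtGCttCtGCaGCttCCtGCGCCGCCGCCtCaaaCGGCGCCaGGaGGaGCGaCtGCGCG
INAFM1, chr19:47274969-47275028, plus strand: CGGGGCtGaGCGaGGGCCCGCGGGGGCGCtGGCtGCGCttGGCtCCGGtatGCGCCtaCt
GUCY1A2, chr11:106687552-106687611, minus strand: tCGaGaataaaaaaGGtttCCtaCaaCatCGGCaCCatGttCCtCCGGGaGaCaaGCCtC
HTR2A, chr13:46834844-46834903, minus strand: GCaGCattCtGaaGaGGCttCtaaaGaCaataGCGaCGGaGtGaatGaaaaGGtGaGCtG
REL, chr2:60891686-60891745, plus strand: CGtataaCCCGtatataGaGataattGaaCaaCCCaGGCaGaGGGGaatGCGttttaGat
The coding GC content is 75.8% for C4orf48, 70.9% for PRR7 and 77.0% for INAFM1, against 48.9% for GUCY1A2, 46.0% for HTR2A and 41.2% for REL.

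The change of a gene followed its GC content across the transcriptome. When the tested genes were divided by transcript GC content into 10 classes of equal size, the median log2 fold change was -0.05 in the lowest class and 0.13 in the highest, a difference of 0.18. Genes that rose at an adjusted p under 0.05 made up 1.16% of the lowest class and 19.0% of the highest, and genes that fell made up 11.5% and 1.54%. Of the 61 DEGs that rose, 24 were in the highest class and 0 in the 2 lowest. Their median GC content was 59.9%, against 46.8% for the DEGs that fell and 48.2% for all genes tested. Length moved with it: the median transcript was 2123 bases in the DEGs that rose, 5593 in those that fell and 3389 in all genes. Genes are not independent of each other, and as a description over the 12978 of them the change correlated with GC content at r = 0.28 and with log2 length at r = -0.39, and at 0.19 and -0.34 when each was adjusted for the other.

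**Figure D2:**
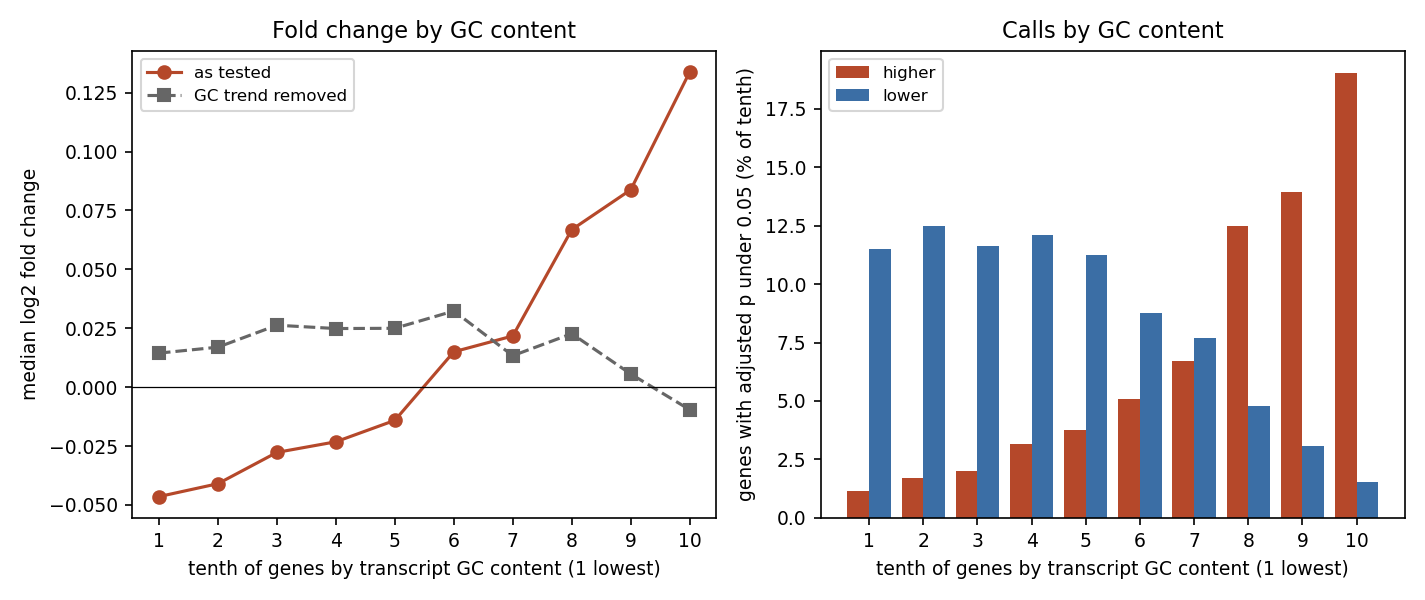
Median log2 fold change (left, y axis) and percentage of genes with an adjusted p under 0.05 (right, y axis) in each of 10 classes of genes by transcript GC content (x axes, 1298 or 1297 genes each), with higher and lower genes as separate bars. The solid line climbs from -0.05 to 0.13, and the dashed line, after removal of the GC trend, is nearly flat.

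The trend was not equal in the libraries of a group. Set against the mean of the 3 vehicle libraries, the highest GC class exceeded the lowest by 0.10, 0.20 and 0.23 on the log2 scale in medium-dose EESF replicates 1, 2 and 3. Each vehicle library was set against the other 2 of its group in the same way, and vehicle B replicate 1 gave 0.12, replicate 2 -0.06 and replicate 3 -0.07. So vehicle B replicate 1 was tilted in the direction of the treated libraries, and since the references differ the sizes of vehicle and treated tilts are not compared. By length, the longest of 10 length classes against the shortest gave -0.31, -0.23 and -0.27 in the treated libraries and -0.25, 0.03 and 0.22 in the vehicle libraries. Whether the trend arose in the cells or in the preparation of the libraries was not tested. It was also present in other comparisons: the highest GC class exceeded the lowest by 0.07 at the medium dose of WESF against vehicle A, and by 0.16 at the low and 0.30 at the high dose of EESF, which share vehicle B with the medium dose. At the low dose of WESF it was 0.08 and at its high dose -0.04. In the comparisons of EESF doses that leave vehicle B out, it was 0.02 between the medium and low doses and 0.11 between the high and medium doses.

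**Figure D3:**
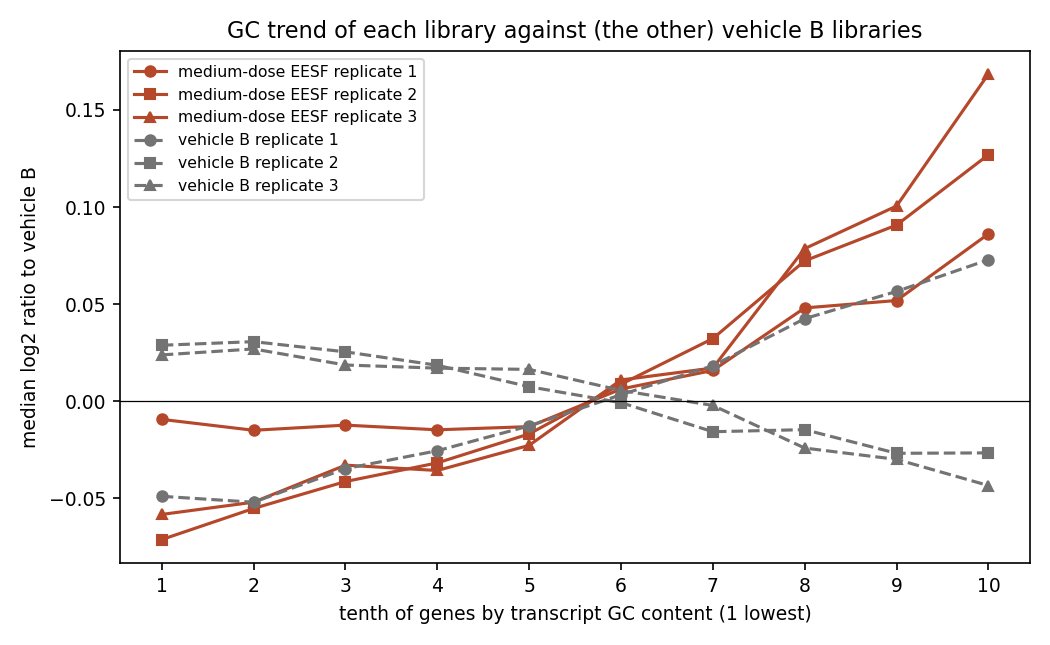
Median log2 ratio (y axis) of each library to vehicle B in each of 10 classes of genes by transcript GC content (x axis); treated libraries (solid) were set against the mean of the vehicle libraries, and each vehicle library (dashed) against the other 2. The 3 treated lines and that of vehicle B replicate 1 rise to the right, and those of vehicle B replicates 2 and 3 fall.

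When the GC trend was removed by a loess fit in each library, 61 DEGs were found, 36 higher and 25 lower, and 783 genes (6.03%) rose and 974 (7.51%) fell at an adjusted p under 0.05. Of the 98 DEGs, 55 remained (31 higher and 24 lower), 76 kept an adjusted p under 0.05, and 6 DEGs were added. With the length trend removed as well, 58 were found, of which 49 were among the 98. At an adjusted p under 0.05, 884 genes then rose and 749 fell, so the balance of the 2 directions turned. DESeq2's Wald test, with no trend removed, had 548 that rose and 1009 that fell. Among the 12 named risers, 2 stayed beyond the fold of 1.5 with the GC trend removed, KRTAP2-3 (0.72) and MSH5-SAPCD1 (0.89), although all 12 kept an adjusted p under 0.05. PRR7 changed from 0.62 to 0.35, INAFM1 from 0.62 to 0.37 and C4orf48 from 0.78 to 0.42. Among the 14 named fallers, 5 remained DEGs without the GC trend, and EGR1 (-1.09), ZBED6 (-0.78) and LGR6 (-0.79) did so with both trends removed. Among the long transcripts DST stood at -0.28, FAT4 at -0.33 and HMCN1 at -0.48 once both were removed, with adjusted p values that stayed under 0.05, whereas GUCY1A2 no longer passed (-0.35, adjusted p = 0.0578).

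Lists of functionally related genes were described by how many members passed an adjusted p under 0.05, beside the 6.9% of all genes that rose and the 8.48% that fell. Members were also counted with the GC trend removed, but not with the length trend removed too. Of 26 semaphorins, ephrins and their receptors, which guide cell contact and migration, 12 fell and 0 rose, with a median of -0.17. SEMA5A, a transmembrane semaphorin, had 163, 189 and 199 CPM in vehicle B and 131, 134 and 121 CPM with EESF (-0.51, adjusted p = 0.000281). EPHA3, a receptor tyrosine kinase for ephrins, had 63.9, 68.4 and 65.8 CPM against 52.8, 49.5 and 50.6 CPM (-0.37). With the GC trend removed 10 of the 26 fell and 0 rose. Of 15 integrins, the receptors that bind cells to the matrix, 6 fell and 0 rose, or 5 and 0 with the GC trend removed. ITGB8, the partner of ITGAV that activates latent TGF-beta, had 45.4, 49.0 and 54.7 CPM in vehicle B and 34.1, 33.9 and 34.0 CPM with EESF (-0.55, SE 0.06, adjusted p = 0.000194), and ITGAV itself fell by 0.31. At their smallest among the alternatives SEMA5A stood at -0.29, ITGB8 at -0.36 and ITGAV at -0.16. Each kept an adjusted p under 0.05 in all 16.

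Some matrix genes fell too. Of 29 collagens 4 fell and 0 rose, and 11 fell with the GC trend removed, where the list's median went from -0.08 to -0.15. COL12A1, a collagen that lies on the surface of collagen I fibrils, had 366, 414 and 409 CPM in vehicle B and 269, 297 and 268 CPM with EESF (-0.51, adjusted p = 0.000168), COL14A1 of the same class changed by -0.50 and COL6A3 by -0.31. COL1A1, a chain of collagen I, changed by 0.02 (adjusted p = 0.885). FN1, fibronectin, had 4206, 4742 and 4763 CPM in vehicle B and 3343, 3655 and 3464 CPM with EESF (-0.39, adjusted p = 0.00073). Of 22 genes of heparan sulfate and proteoglycans 5 fell and 0 rose, among them VCAN, the large proteoglycan versican (-0.52), and the heparan sulfate sulfotransferases NDST3 (-0.40, kept in 12 of 16 alternatives) and NDST1 (-0.25). Many of these transcripts are long (12345 bases for VCAN), and with both trends removed VCAN stood at -0.28, COL12A1 at -0.30 and FN1 at -0.26, each with an adjusted p under 0.05.

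Some inflammatory genes rose. Of 15 cytokine and chemokine genes 4 rose and 0 fell, with a median of 0.27. CXCL8, the neutrophil chemoattractant IL-8, had 2.69, 2.22 and 3.25 CPM in vehicle B and 3.85, 4.15 and 4.09 CPM with EESF (0.57, SE 0.15, adjusted p = 0.0193). IL1B, interleukin-1 beta, had 4.57, 3.79 and 4.03 CPM against 5.44, 6.47 and 5.24 CPM (0.47). NFKBIA, the inhibitor of NF-kappa-B, had 30.04, 32.3 and 32.5 CPM with vehicle B and 42.9, 43.4 and 43.7 CPM with EESF (0.45, adjusted p = 0.000248), and the chemokine CCL5 rose by 0.78 at 0.910 to 2.54 CPM. The calls of CXCL8 and IL1B were each kept in 3 of the 6 fits that left out a library, that of CCL5 in 1, and CCL5 had an adjusted p of 0.051 with the GC trend removed and 0.0701 with the length trend removed too. DESeq2 gave CXCL8 an adjusted p of 0.0562 and IL1B one of 0.0629. CEBPB, a transcription factor of inflammation and stress, had 41.9, 47.0 and 45.3 CPM in vehicle B and 61.5, 66.5 and 70.9 CPM with EESF (0.57, adjusted p = 0.000141), and 0.40 with the GC trend removed.

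Of 35 targets of ATF4, the transcription factor of the integrated stress response, 6 rose and 2 fell. Those that rose were CEBPB, DDIT4 (0.30), DDIT3 (0.25), the asparagine synthetase ASNS (0.21), SLC6A9 (0.21) and PYCR1 (0.18), and those that fell were the amino acid transporters SLC38A2 (-0.24) and SLC7A1 (-0.17). The call of DDIT3 held in 9 of 16 alternatives and in 2 of the 6 that left out a library. That of DDIT4 held in all 16, with a change of 0.16 at its smallest. Of 27 targets of NRF2, which controls antioxidant enzymes, 5 rose and 1 fell. NQO1, a quinone reductase, had 160, 152 and 151 CPM in vehicle B and 187, 178 and 185 CPM with EESF (0.25, adjusted p = 0.00227). The ferritin chains FTH1 (0.21, kept in 14 of 16 alternatives) and FTL (0.23) and the haem transporter SLC48A1 (0.26, kept in 11) rose as well. FTL was kept in all 16, with a change of 0.11 at its smallest. Of 18 targets of HIF1 4 rose and 0 fell, with VEGFA at 0.23 and NDRG1 at 0.25. Of 16 heat shock proteins 5 fell and 0 rose, or 3 and 0 with the GC trend removed. HSPA1A fell by 0.28 and HSPA1B by 0.31, which are near-identical copies that divide their reads. TXNIP, an alpha-arrestin that limits glucose uptake and binds thioredoxin, had 11.1, 10.7 and 9.82 CPM in vehicle B and 14.7, 13.3 and 16.0 CPM with EESF (0.47, adjusted p = 0.00245), and ID1 (0.44) and ID3 (0.42), targets of BMP signalling, also rose. Among 24 TGF-beta and BMP ligands and targets 4 rose and 1 fell, with a median of 0.05, or 5 and 2 with the GC trend removed. In edgeR 0 of 20 p53 targets and 0 of 31 proteasome genes passed the threshold, 2 of each had an unadjusted p under 0.05, and DESeq2, which gave no adjusted p for 2 of the p53 targets, also called 0 in both lists.

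Some genes of lipid synthesis fell by small amounts. Of 12 genes of fatty acid synthesis 5 fell and 0 rose, with a median of -0.14. SCD, the stearoyl-CoA desaturase, had 253, 277 and 280 CPM in vehicle B and 217, 228 and 208 CPM with EESF (-0.31, adjusted p = 0.00129), and ACACA, acetyl-CoA carboxylase, changed by -0.32. At their smallest among the alternatives ACACA stood at -0.15 and SCD at -0.23, and both kept an adjusted p under 0.05 in all 16. Of 23 genes of sterol synthesis and uptake 5 fell and 0 rose, with a median of -0.02. Among 30 genes of G2/M and the spindle 3 rose and 2 fell. MKI67, the proliferation marker Ki-67 with a very long transcript, fell by 0.49 and CENPF, a large kinetochore protein, by 0.27, while PTTG1, securin, rose by 0.31 and AURKB by 0.25. With the GC and length trends removed MKI67 stood at -0.27, and CENPF (-0.06, adjusted p = 0.236) and AURKB (0.13, adjusted p = 0.0622) no longer passed, and with the GC trend alone removed 5 of the 30 rose and 2 fell. Of 18 circadian clock genes 4 fell and 0 rose, among them the nuclear receptors NR1D1 (-0.27) and NR1D2 (-0.30), and 5 fell and 1 rose with the GC trend removed. Of 13 replication-dependent histone genes 1 rose and 0 fell. It was H4C3 (1.72, adjusted p = 0.0135), a DEG that averaged only 8.59 normalized counts.

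The study centres on oxidative phosphorylation (OXPHOS). Of 108 nuclear-encoded OXPHOS genes 7 rose and 1 fell, beside 6.9% and 8.48% of all genes, with a median of 0.04 against 0.01 for all genes. Of these, ATP6V0C (0.21) and TCIRG1 (0.27), which rose, and ATP6V1A (-0.18), which fell, are subunits of the vacuolar proton pump and not of the respiratory chain. The others that rose were ATP5MC2 (0.24), CYC1 (0.22), NDUFA7 (0.25), UQCRFS1 (0.17) and ATP5F1D. An adjusted p under 0.05 was kept by NDUFA7 in 5 of 16 alternatives, by ATP6V1A in 8 and by TCIRG1 in 13. ATP5F1D, the delta subunit of ATP synthase, had 31.7, 31.7 and 28.1 CPM in vehicle B and 35.8, 41.6 and 43.4 CPM with EESF (0.40), and 0.16 with the GC trend removed (adjusted p = 0.0802). COX5B, a subunit of cytochrome c oxidase, had 24.9, 22.3 and 17.99 CPM against 23.0, 24.4 and 23.7 CPM, with overlapping groups (0.12, SE 0.09, adjusted p = 0.372). Of the 13 OXPHOS genes encoded by mitochondrial DNA 4 rose and 1 fell, or 6 and 1 with the GC trend removed, with MT-ND6 at 0.62 (1134, 1512 and 2313 CPM with EESF against 1188, 1043 and 985 CPM) and MT-ND4L, which overlaps MT-ND4, at -0.28. The treated libraries of MT-ND6 were widely spread and overlapped the vehicle libraries, and its call was lost with DESeq2 (adjusted p = 0.186), without vehicle B replicate 2 (0.0697) and without medium-dose EESF replicate 3 (0.0702). MT-ND6 is read from the opposite strand of genes whose reads could be counted for it. The share of counts from mitochondrial DNA was 11.6%, 11.8% and 11.9% in vehicle B and 11.5%, 13.3% and 14.1% in medium-dose EESF, and its part in these calls was not tested. Of 79 mitochondrial ribosomal proteins 6 rose and 0 fell, and of 83 cytosolic ones 1 rose and 0 fell, against 8 and 6 that rose with the GC trend removed.

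**Figure D4:**
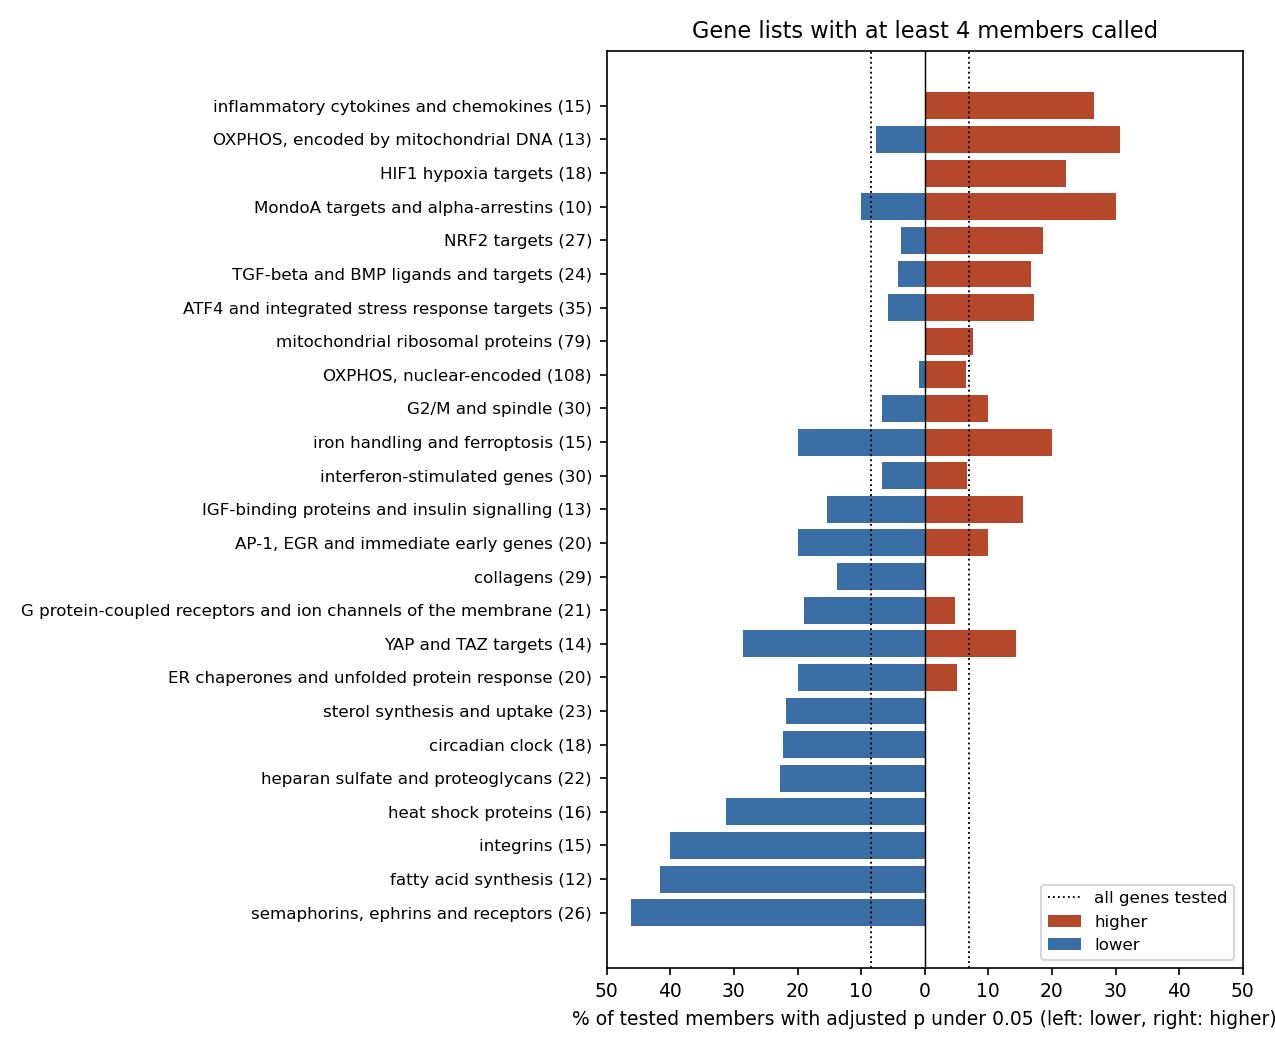
Percentage of the tested members of each list (number in brackets) with an adjusted p under 0.05, higher to the right and lower to the left, for lists with at least 4 such members; dotted lines give the percentages over all genes tested, 6.9% and 8.48%. Guidance genes, fatty acid synthesis, integrins and heat shock proteins have bars to the left only, and cytokines and HIF1 targets to the right only.

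The dose order of the named genes differed. The low, medium and high doses of EESF share the vehicle B libraries, so their fold changes are set side by side with no test between them, apart from direct comparisons of the treated libraries. EGR1 changed by -1.13, -1.04 and -1.34 from the low to the high dose, and KLF6 by -0.62, -0.57 and -0.33. PRR7 (0.61, 0.62 and 0.46), C4orf48 (0.92, 0.78 and 0.81) and FN1 (-0.34, -0.39 and -0.43) changed by amounts closer to each other at the 3 doses than the next genes did. By contrast ITGB8 changed by -0.24, -0.55 and -3.22, LGR6 by -0.08, -0.71 and -3.41, HTR2A by -0.31, -0.59 and -2.88, and TXNIP by -0.16, 0.47 and 4.82.

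Tested directly, medium-dose against low-dose EESF gave 2 DEGs among 13093 genes, TXNIP (0.62, adjusted p = 0.00234) and the read-through INO80B-WBP1, and there were 8 without medium-dose EESF replicate 1. A further 16 genes had an adjusted p under 0.05, among them ITGB8 (-0.32), EPHA3 (-0.24), SCD (-0.26) and FADS2 (-0.26), which were lower at the medium dose, and ALDH1A3, an enzyme that makes retinoic acid (0.27), which was higher. High-dose against medium-dose EESF gave 1534 DEGs (11.6% of 13263). Of the 98 DEGs, 26 of those that rose and 17 of those that fell had an adjusted p under 0.05 there, against 50.9% of all genes tested. Of the DEGs that rose, 14 were DEGs in the same direction there and 5 in the opposite one, among them SOCS1, and of those that fell 11 and 0, against 1003 and 440 of all genes. The medium-dose libraries enter both comparisons with opposite signs, which favours the opposite direction. No value for the case of no change was calculated, so these counts are descriptive. LGR6 was lower by a further 2.69 at the high dose, HTR2A by 2.28 and EGR1 by 0.30, and KRTAP2-3 was higher by 3.07. ITGB8, which is under the fold threshold at the medium dose, was lower by 2.67. For PRR7, C4orf48 and HDAC10 the high dose gave -0.15 (adjusted p = 0.275), 0.03 (adjusted p = 0.826) and -0.03 (adjusted p = 0.802) relative to the medium dose.

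The medium dose of WESF, at 100 µg/mL, was set against vehicle A. Same-numbered libraries of vehicle A and vehicle B deviated together from their group means, with correlations of 0.57, 0.28 and 0.51, so the comparisons of the extracts are not independent. At the matched position in the dose series, 537 of 13112 genes (4.1%) had an adjusted p under 0.05 there. Of the 37 DEGs that fell with medium-dose EESF, 34 were tested and 6 were lower with WESF at an adjusted p under 0.05. Of the 61 that rose, 57 were tested and 5 were higher at an adjusted p under 0.05. LGR6 (-1.51), ITGB8 (-0.77), HTR2A (-0.51), MAP2 (-0.57), KRTAP2-3 (0.63), CXCL8 (0.72) and IL1B (0.53) passed the threshold with WESF, and EGR1 (-0.30, adjusted p = 0.253), PRR7 (0.13) and C4orf48 (0.26) did not. The difference between the extracts, tested as an interaction over 12 libraries, gave 27 genes of 13276 with an adjusted p under 0.05, of which 4 were DEGs. These 4 became 10 when vehicle B replicate 1 was left out, and 0 when vehicle B replicate 2 was or DESeq2 was used. With a replicate block within each batch 0 genes passed in edgeR (1447 had an unadjusted p under 0.05), or 24 with 3 DEGs when the GC trend was removed as well. With a block over same-numbered libraries of both vehicles, which was added after seeing the data, 606 genes passed, among them all 27, and 20 were DEGs. For EGR1 the difference had an adjusted p of 0.128, 0.253 with the first block and 0.0211 with the second, so its call depends on how the numbers are used. KLF6, which changed by -0.01 with WESF, had 0.00799, 0.0567 and 0.000611. The doses of the extracts differ (62 against 100 µg/mL), so the values stand side by side as the study's medium doses and not as equal amounts.

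**Figure D5:**
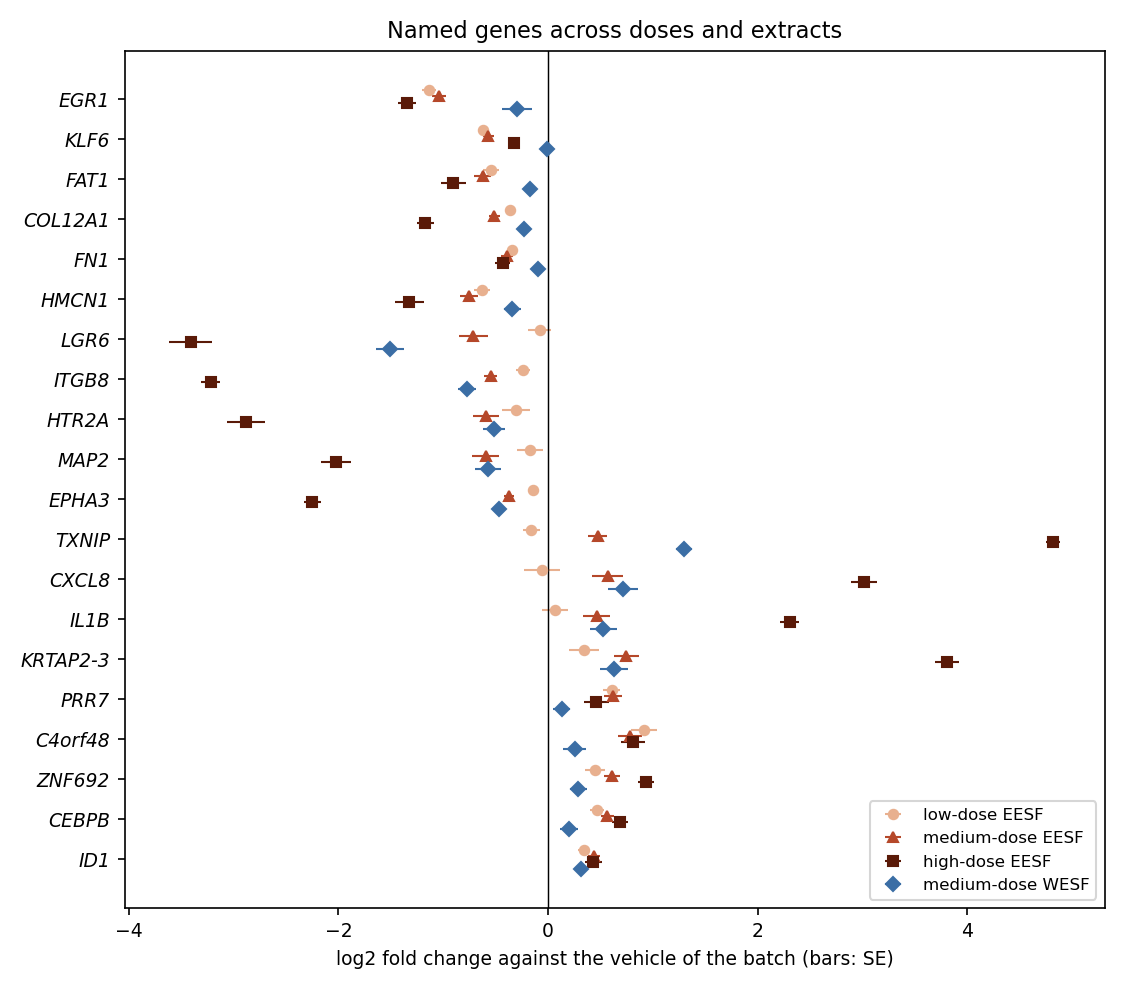
Log2 fold change against the vehicle of the same batch (x axis, with SE) for 20 genes named in the text at the low, medium and high doses of EESF and the medium dose of WESF. The doses of EESF lie close together for FN1, PRR7 and C4orf48, whereas ITGB8, LGR6, TXNIP and KRTAP2-3 lie farthest from 0 at the high dose.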

How the data were processed

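RNA-seq of SW1783 cells was analysed in 3 medium-dose EESF and 3 vehicle B libraries, grouped by the labels, with the other 18 libraries used only where named. The authors checked reads with FastQC 0.11.9, trimmed them with Trim Galore 0.6.6, aligned them with STAR 2.7.9a to GRCh38 (the methods also write hg19) and deposited RSEM 1.3.3 expected counts per gene, neither normalized nor filtered; 10.9% of the values are not whole. The kit marks strand, but RSEM's setting for it is not given in the sources used here. The table holds 60675 genes, of which 56558 are in GENCODE 44, the source of symbols, GRCh38 coordinates, GC content and transcript lengths (Ensembl canonical transcript).

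The deposited expected counts were rounded first, and protein-coding genes passing filterByExpr were tested with edgeR 4.0.16 (TMM, quasi-likelihood test, 2-sided, Benjamini-Hochberg adjustment) in R 4.3.3 on the libraries of each comparison. The study's tool, DESeq2, was run as an alternative in version 1.42.0. GC and length trends were removed as offsets from loess fits (span 0.5). Named genes were drawn from the DEGs averaging at least 100 normalized counts with non-overlapping groups (up to 15 in each direction). Others were DEGs in a gene list. Up to 3 genes of each list were also taken, with the largest changes among those with an adjusted p under 0.05. Not every gene taken from the lists is described. Further list members, among them NFKBIA, COX5B and COL1A1, were named after their values were seen. The members, lists and tests were chosen with earlier results of these data known. The fits were tested on simulated data with and without a GC trend, and with the trend more of the DEGs called were false when it was not removed than when it was. That trend was linear in GC content, added by design and without a length trend. The outcome therefore does not show which DEGs of these data are false. The chi-square per degree of freedom between replicates was 4.30 in vehicle B and 7.76 in medium-dose EESF, where 1 is counting error alone. Across batches, same-numbered libraries of vehicle A and vehicle B deviated together from their group means (correlations of 0.57, 0.28 and 0.51 over 10889 genes), so their numbers were taken to pair them. The labels do not say what they share, and each pair differed by more than counting error (chi-square per degree of freedom 3.45, 3.66 and 3.39). Alternatives are given in the closing section.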

Additional observations from a re-analysis of the deposited data

Results flagged for a closer look

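At the medium dose, 27 genes responded differently to EESF and WESF at an adjusted p under 0.05 in edgeR's interaction test, and the batch differs with the extract. A replicate block within each batch left 0 of them, and one over same-numbered vehicle libraries kept all 27 among 606. Values are the log2 change with EESF minus that with WESF. TXNIP had -0.83, as it rose by 0.47 with EESF and by more with WESF. KLF6 (-0.56), which fell with EESF, changed by -0.01 with WESF, and PLK2, a stress-responsive kinase that fell by 0.30 with EESF, had -0.37. HSPA1B (-0.40), COL6A3 (-0.39) and the synaptic scaffold FRMPD4 (-0.74) were also lower with EESF relative to WESF. The chemokine CCL2 (0.73), the homeobox gene DLX2 (0.59) and NFKBIA (0.35) were higher with EESF relative to WESF, and these 9 genes were chosen after their values were seen. The comparisons above leave out genes not annotated as protein-coding. In a fit of all classes 71 of 2707 of these met the DEG criteria (2.62%), 41 higher and 30 lower, against 75 of 12978 protein-coding genes (0.578%) in the same fit, and 7 of the 71 are absent from GENCODE 44 and of unknown class. Many of the 71 averaged under 100 normalized counts, down to 9.45, where depth limits the precision of the fold. The percentages of the classes were not compared at equal depth. MALAT1, an abundant nuclear lncRNA, had 880, 719 and 865 CPM in vehicle B and 1416, 1281 and 1537 CPM with medium-dose EESF, a change of 0.78 (adjusted p = 0.000146).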

How the results depend on the processing

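Each of the 26 DEGs named for their size kept its direction in the 16 alternatives. The number of DEGs was less stable: against 98 (61 higher, 37 lower) there were 33 (15 and 18) with DESeq2, 61 (36 and 25) with the GC trend removed, and 58 (36 and 22) with the length trend removed too. When all genes of the table were fitted there were 146 (82 and 64). Of these, 71 (41 and 30) are not annotated as protein-coding, a class that the 98 leave out. Leaving out a library gave 50 to 164 DEGs, 27 to 81 higher and 20 to 83 lower, and 791 to 2838 genes with an adjusted p under 0.05 against 1997. The 4 DEGs for the difference between extracts became 0 with DESeq2, 10 with no filter on low counts, 2 with counts thinned to the smallest total, and 0 to 10 without a library. Medium against low dose of EESF gave 18 DEGs with no filter, 1 with all groups fitted, 4 with GC and length trends removed, and 2 to 8 without a library, against 2. Medium-dose WESF had 36 DEGs, 23 with DESeq2, 55 with GC and length trends removed, and 9 to 61 without a library. Many thinly covered DEGs of the main comparison had no adjusted p in DESeq2. Apart from these and the genes added in the fit of all classes, the cause of the changes was not tested. Same-numbered libraries of vehicle B and medium-dose EESF correlated at 0.07, 0.06 and 0.03 in their deviations, so the numbers do not pair these groups. With the replicate block within each batch there were 102 DEGs, 78 with the GC trend removed as well, 0 for the extracts (3 with the GC trend removed), and 11 (10 with the GC trend removed) for medium against low dose. A block shared by same-numbered libraries of the vehicles, added after seeing the data, gave 20 DEGs for the extracts, 19 with the GC trend removed. The difference between GC classes stayed between 0.15 and 0.22 without a library. For the 68 DEGs with a mean under 100 normalized counts, depth limits the precision of the fold.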

Other observations

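Other non-coding transcripts with at least 100 normalized counts moved in both directions. LINC01355 had 5.15, 5.24 and 5.48 CPM in vehicle B and 8.27, 8.46 and 8.67 CPM with medium-dose EESF (0.68, adjusted p = 0.00104), and FER1L4, a pseudogene transcript, had 7.23, 6.67 and 6.24 CPM against 10.7, 11.2 and 12.1 CPM (0.75). In both the groups were well apart. TUBA1B-AS1, which lies antisense to the tubulin gene TUBA1B, had 135, 195 and 164 CPM against 200.04, 340.3 and 471 CPM, with a wide spread among the treated libraries (1.03). SMG1P1 and SMG1P3, unprocessed pseudogene copies of the kinase gene SMG1, were lower (-0.69 and -0.78), as SMG1 itself was (-0.39), and reads can be divided wrongly among such copies.

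Among the DEGs with a mean under 100 normalized counts, EDN1, the vasoconstrictor endothelin-1, had 4.83, 4.65 and 3.31 CPM in vehicle B and 2.40, 2.32 and 2.82 CPM with EESF (-0.77, adjusted p = 0.00582). CHRM3, the muscarinic acetylcholine receptor M3, had 1.12, 1.01 and 0.828 CPM against 0.459, 0.456 and 0.491 CPM (-1.07). SOCS1, an inhibitor of cytokine signalling, had 2.24, 1.97 and 2.43 CPM against 3.25, 3.57 and 4.17 CPM (0.73), and ACTC1, cardiac actin, had 0.711, 0.859 and 0.883 CPM against 2.23, 2.32 and 1.23 CPM (1.24). With the GC and length trends removed SOCS1 (adjusted p = 0.059) and CHRM3 (adjusted p = 0.0548) no longer passed, whereas EDN1 and ACTC1 did. Of these genes DESeq2 gave an adjusted p for EDN1 only. None of the groups overlapped in these 4 genes, which were chosen after their values were seen. The same held for 57 of the 61 DEGs that rose and 32 of the 37 that fell. It also held for 4392 of all 12978 genes tested.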
